A study of Homo sapiens with 41 samples.

Results

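The comparison described here is between the basolateral cells of a layered alveolar culture exposed for 24 h to star-shaped gold nanoparticles with the number 1000 in the sample title (stars 1000, 3 libraries) and the basolateral cells of the same culture with no treatment (control, 3 libraries). These 6 libraries were taken by their titles out of 41 in the series, of which 20 are basolateral. The basolateral cells are labelled EA.hy296, a spelling close to that of EA.hy926, a line made by fusing umbilical vein endothelial cells with A549 cells, and were kept submerged, while the apical side of every culture, exposed or not, held A549 cells, a lung adenocarcinoma line, together with differentiated THP1 cells, a monocytic leukaemia line, at an air-liquid interface. The label for the exposure reads Au stars NP, and the labels give neither the unit of the number 1000 nor the side to which the particles were added. The study's design text calls the libraries biological replicates and its title speaks of 4 cell types, whereas the labels name 3 lines. The named lines are established ones, so that replicates are cultures of the same lines and not of different donors.

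The lower cell layer stands for the capillary endothelium of the alveolus, which lines the vessel wall, holds its cells together with VE-cadherin (CDH5), and answers inflammatory signals by making cytokines and adhesion molecules. Particles that reach such cells are usually taken up by endocytosis and end in lysosomes. The responses most often looked for after metal particles are oxidative stress, metallothionein induction, inflammation and a change in cell division or in the making of proteins. Ribosomal proteins, which form the ribosome with its RNAs, and the subunits of the respiratory chain, which makes ATP in mitochondria, belong to the last of these and to the energy supply of the cell.

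The labelled identity was checked against marker genes. The cells carried endothelial transcripts at high level, with CDH5 at 948, 808 and 1014 CPM (the counts of a gene scaled to an equal total per library) in the 3 stars 1000 libraries, against 655, 826 and 984 CPM in the 3 control libraries. In apical control cells CDH5 averaged 4.35 CPM. Of the 20 endothelial markers measured, all but CLDN5 and EMCN, which stood at no more than 2.01 CPM in any library, were expressed in the basolateral libraries, and PECAM1 was not analysed here. The libraries held 4613989 to 10389360 counts, the smallest being stars 1000 replicate 1, and 16624 to 18178 genes had reads. A limit of 3 counts came to 0.289 to 0.65 CPM. On the first principal component, which carried 48.7% of the variance between the 6 libraries, stars 1000 stood at -29.7, -4.19 and 20.2 in replicates 1, 2 and 3, and control at -38.5, -11.8 and 64.1. Libraries numbered 1 had the lowest score and those numbered 3 the highest in both groups, and same-numbered libraries deviated from their group means together, with a correlation of 0.38, 0.14 and 0.40.

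The question of the comparison is which genes of the endothelial layer differed after exposure to stars 1000. No gene passed the threshold when only the group was fitted. At an adjusted p under 0.05 the count was 0 of 13182 genes tested (0%), and 211 stood below 0.05 before adjustment, 91 higher (0.69% of all tested) and 120 lower (0.91%) in stars 1000 (edgeR quasi-likelihood test, Benjamini-Hochberg adjustment over all genes). DESeq2 with group only also called 0, with 144 at an unadjusted p under 0.05, and limma-voom 0, with 226. Log2 fold changes had a standard error of 0.18 in the median, and for 10016 genes (76%) the 95% interval of the fold change lay within 2-fold either way. A change beyond 2-fold in those genes is outside the interval, while smaller changes were not resolved at this number of replicates.

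Since same-numbered libraries deviated together, the replicate number was also fitted as a block. edgeR then again called 0 of 13182 genes, while 510 were below 0.05 before adjustment, of which 194 were higher (1.47% of all genes tested) and 316 lower (2.4%). The share below 0.05 in edgeR was thus 3.87% with the block, and 1.6% with group only. A threshold of 0.05 would on average pass more than either share if no gene differed. DESeq2 with the same block called 16 genes (0.121%), 13 lower (0.0986%) and 3 higher (0.0228%) in stars 1000. That fit gave no adjusted p for 8434 of the 13182 genes, which it could therefore not call, and adjusted over all genes it called 4, all lower. Ribosomal protein genes made up 8 of the 13, namely RPS2, RPS27, RPL22, RPL26, RPL27, RPL28, RPL36A and RPL37. The others are COX7C and MT-CO2, which encode subunits of cytochrome c oxidase, YBX1, which encodes an RNA-binding protein that acts in translation, ANP32B, which encodes a histone chaperone, and CCDC112, which encodes a coiled-coil protein. The 3 higher genes were HIST1H4C, which encodes histone H4, KITLG, which encodes stem cell factor, the ligand of the KIT receptor, and RND3, which encodes a protein that acts on the actin cytoskeleton. When edgeR's block fit was run on all 22300 genes with a read, 36 genes (0.161%) were called, 10 higher and 26 lower, and all 16 genes of the DESeq2 fit were among them. These calls rest on the block and on the tool. Without replicate 1, 2 or 3 of both groups, the DESeq2 block fit called 3, 1 and 11 genes, of which 2, 0 and 3 were among the 16, and edgeR's block fit called 0, 0 and 8. Whether fewer cells of a kind or less RNA per cell lies behind a lower level cannot be told apart in such bulk samples.

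The ribosomal protein genes were the group with the most calls among those 16. RPL28, a protein of the large ribosomal subunit, had 206, 199 and 145 CPM in stars 1000 replicates 1, 2 and 3, against 277, 246 and 214 CPM in control. The 3 stars 1000 libraries were all below the 3 control libraries, and each was below the control of its own number. The log2 fold change was -0.43 ± 0.14 (SE) with group only and -0.44 ± 0.08 with the block, at an adjusted p of 0.456 in edgeR and 0.0199 in DESeq2, both with the block. RPL36A, another protein of the large subunit, had 395, 405 and 348 CPM in stars 1000, against 587, 490 and 430 CPM in control, again without overlap. Its log2 fold change was -0.40 ± 0.12 with group only and -0.39 ± 0.08 with the block, where the adjusted p was 0.742 in edgeR and 0.0183 in DESeq2. RPL36A and the other ribosomal protein genes have many near-identical processed pseudogenes, and how the authors' counting split such reads is not given, so that each single value is uncertain to that extent.

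For the other 6 called genes of this group the stars 1000 library was below the same-numbered control in every pair, while the ranges of the groups overlapped. RPL27 had 170, 166 and 105 CPM in stars 1000, against 234, 215 and 163 CPM in control (log2 fold change with the block -0.49 ± 0.08, DESeq2 adjusted p = 0.0139). RPS2, of the small subunit, had 1421, 1797 and 1315 CPM in stars 1000, against 2008, 2165 and 1584 CPM in control (-0.35 ± 0.08, DESeq2 adjusted p = 0.00488). In both genes replicate 3 was the lowest library of its group, and edgeR's block fit with the filter called neither. RPS27 had the largest difference of the ribosomal protein genes tested, with 60.5, 65.1 and 37.8 CPM in stars 1000, against 144, 90.8 and 53.4 CPM in control. That difference was widest in replicate 1 and its error was correspondingly large with group only (log2 fold change -0.82 ± 0.37).

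Over the whole family the shift was small and went mostly one way. Of 90 ribosomal protein genes measured, 84 passed the filter on low counts, and of these 62 were lower and 22 higher in stars 1000, with a median log2 fold change of -0.09 and a range of -0.82 to 0.26. Among all genes tested 49.2% were lower and the median was 0.003. In 39 of the 84 every stars 1000 library was below the control of its own number, which held for 12.4% of all genes tested, and in 29 an unadjusted block p under 0.05 was reached on the lower side, against 2.4% of all genes. RPS14 and RPS18 were on the higher side at an unadjusted block p under 0.05, with a log2 fold change of 0.21 and 0.22, and RPS27A had the highest value at 0.26. The family's genes vary together and share pseudogenes, so that these counts are no independent observations. The list by symbol was also drawn up after the fits were seen and holds the 8 genes called by DESeq2 with the block. The counts therefore describe the family and do not test it. In the shorter list of 20 such genes the summed level was 15750, 15460 and 14840 CPM in stars 1000, against 17240, 16140 and 16300 CPM in control. The groups did not overlap, and the exact two-sided permutation test gave p = 0.1, the smallest that 3 against 3 allow. The same p without overlap was found for 3 of the 41 lists, the others being leukocyte adhesion (1816, 1851 and 1894 CPM in stars 1000, against 1666, 1800 and 1752 CPM in control) and metalloproteinases (4503, 4528 and 4372 CPM in stars 1000, against 3507, 4067 and 4353 CPM in control), while 6.78% of all single genes did not overlap.

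Ribosomal protein messages are short, so the lower values were set beside transcript length in GENCODE 29. Of 83 ribosomal protein genes with a coding transcript 75 had a median transcript length under 1000 bases, of which 55 were lower, with a median log2 fold change of -0.09. Of 1308 other coding genes under 1000 bases whose average log2 CPM was 5 or more, 48.2% were lower and the median log2 fold change was 0.005. Without the limit on level, 52.0% of 2817 other coding genes under 1000 bases were lower (median -0.008), and of 4302 other coding genes of 1000 bases or more at the same level 45.6% were lower (median 0.01). Over all coding genes the share lower declined with length, and was 53.8% in the shortest class (median length 569 bases) and 42.5% in the longest (median 5306 bases). At an average log2 CPM of 5 or more, 72.5% of 80 ribosomal protein genes of any length were lower (median -0.08). The part of transcript length in the ribosomal protein values was not tested. The family also stayed lower in the median whichever library was left out, between -0.15 without control replicate 2 and -0.06 without control replicate 3. These fits with group only kept the same-numbered library of the other group, so they cannot show the direction within pairs.

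Messages for the translation machinery are known to start with an unbroken run of C and T, the terminal oligopyrimidine motif, through which their translation follows growth signals. The windows around the annotated start of 7 of the genes called lower are shown to let the start sites be compared. Each holds 15 bases before and 15 from the start on, read 5′ to 3′ on the gene's strand from RefSeq promoters of GRCh38.p14, with the run of C and T that holds the first transcribed base in capitals.
RPL28: tcgcccctcgCCTTCCTCTTTCCgtctcag
RPL36A: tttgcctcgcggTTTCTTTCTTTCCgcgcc
RPS27: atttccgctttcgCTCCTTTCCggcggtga
RPL22: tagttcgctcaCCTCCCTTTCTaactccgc
RPL26: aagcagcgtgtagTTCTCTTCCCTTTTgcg
COX7C: ccatttcccaTCTTTCTTTTCagtccttgc
RPL27: ccggggtgaaaggttagcggaagtgtcctt
The windows lie at chr19:55385917-55385946 (plus strand) for RPL28, chrX:101390996-101391025 (plus) for RPL36A, chr1:153990747-153990776 (plus) for RPS27, chr1:6199581-6199610 (minus) for RPL22, chr17:8383179-8383208 (minus) for RPL26, chr5:86617926-86617955 (plus) for COX7C and chr17:42998404-42998433 (plus) for RPL27. The run was 13 bases in RPL28 and in RPL36A, 9 in RPS27, 11 in RPL22, 14 in RPL26 and 11 in COX7C, and RPL27 has no C or T at its annotated first base. Runs were counted on both sides of that base, so part of a run can lie before the annotated start of the message. A run of at least 5 such letters on the gene's strand, counted in the same way around the annotated first base, stood in 9.6% of all 35116 promoters of that table. Of the other genes called by DESeq2 with the block, ANP32B had a run of 15 bases, RND3 of 1, and YBX1, CCDC112 and KITLG had none at their annotated first base. This describes the letters at the annotated starts and no more. RPL37, RPS2 and HIST1H4C had no entry.

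**Figure D1:**
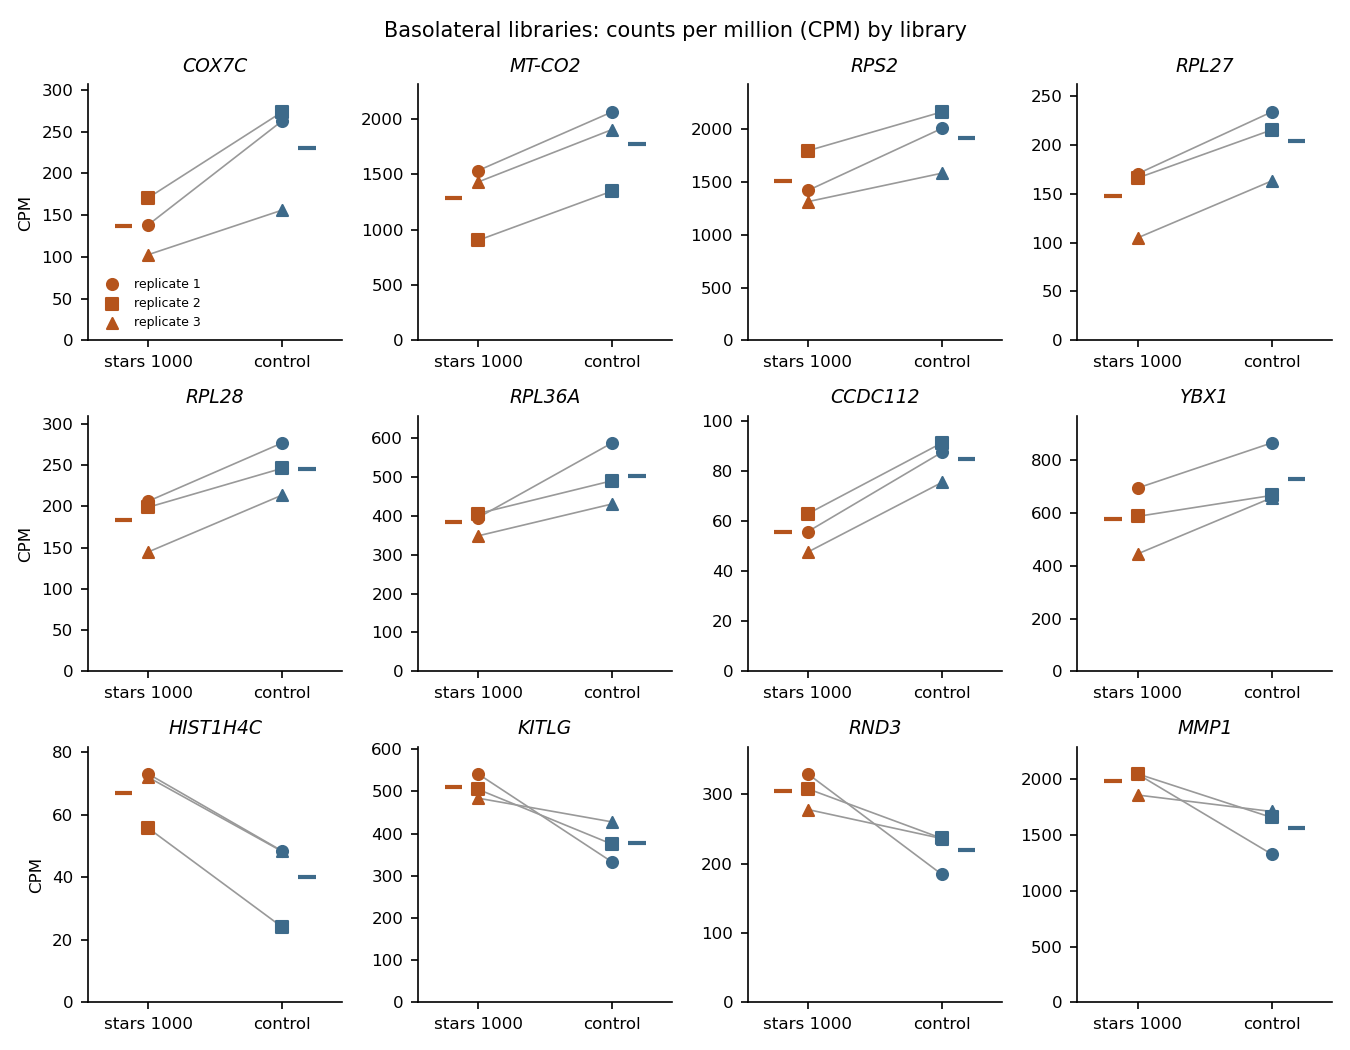
CPM of 12 genes in each basolateral library, stars 1000 left of control, with a line joining libraries of the same replicate number (circle, square and triangle for replicates 1, 2 and 3) and a short bar at each group mean; all axes start at 0. COX7C, MT-CO2 and the ribosomal protein genes were lower in stars 1000 in each same-numbered pair, while HIST1H4C, KITLG, RND3 and MMP1 were higher in each.

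COX7C, a small nuclear-encoded subunit of cytochrome c oxidase, had the smallest adjusted p of all genes in the edgeR block fit. It lies on chromosome 5 at 86617904 to 86620962 (plus strand, GRCh38). COX7C had 138, 171 and 103 CPM in stars 1000, against 263, 274 and 156 CPM in control. Every exposed library was below the control of its number, although stars 1000 replicate 2 was above control replicate 3. The log2 fold change was -0.75 ± 0.24 with group only and -0.74 ± 0.08 with the block, at an adjusted p of 0.0939 in edgeR and 8.5e-08 in DESeq2, both with the block. It was among the 4 genes still called when the DESeq2 p-values were adjusted over all genes tested, together with MT-CO2, RPS2 and RPL27, and one of the 2 called, with MT-CO2, when the counts were halved. The levels of COX7C in other basolateral groups spread widely, for example from 77.8 to 396 CPM in the 3 libraries of spheres 1000.

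MT-CO2, the mitochondrially encoded second subunit of the same enzyme, had 1534, 904 and 1431 CPM in stars 1000, against 2064, 1349 and 1905 CPM in control. Replicate 2 was the lowest library of both groups. The log2 fold change was -0.46 ± 0.24 with group only and -0.48 ± 0.07 with the block, where edgeR gave an adjusted p of 0.347 and DESeq2 8.5e-08. Of the 13 protein-coding mitochondrial genes 11 were lower and 2 higher, with a median log2 fold change of -0.17, and 7 were lower in all 3 pairs. Without stars 1000 replicate 2 the group-only median was 0.07 and 10 of the 13 were higher. That fit kept control replicate 2, the lowest control in the summed level of these genes, so it cannot show the direction within pairs. The sums were 18340, 10880 and 20710 CPM in stars 1000, against 20260, 14350 and 18410 CPM in control. Stars 1000 was thus lower in pairs 1 and 2 and higher in pair 3. The nuclear genes of the respiratory chain were evenly split, as of 69 subunit genes tested 33 were lower and 36 higher with a median log2 fold change of 0.009. NDUFS5, a subunit of complex I, had 29.04, 28.8 and 15.1 CPM in stars 1000, against 41.6, 34.7 and 22.9 CPM in control, lower in each pair and not called. COX5B, another subunit of cytochrome c oxidase, had 94.3, 75.8 and 81.8 CPM in stars 1000, against 74.4, 64.9 and 78.1 CPM in control, higher in each pair and not called.

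The remaining genes called lower by the DESeq2 block fit included 1 whose groups did not overlap. CCDC112, on chromosome 5 at 115267188 to 115296831 (minus strand), had 55.9, 63.0 and 47.7 CPM in star-exposed libraries, against 87.6, 91.3 and 75.5 CPM in control. All 3 exposed libraries were below all 3 controls. Its log2 fold change of -0.62 ± 0.12 with group only had an unadjusted p of 0.000601, and with the block (-0.62 ± 0.09) the adjusted p was 0.321 in edgeR and 0.0199 in DESeq2. YBX1 had 695, 588 and 446 CPM in stars 1000, against 866, 667 and 658 CPM in control (block -0.36 ± 0.09, DESeq2 adjusted p = 0.042). ANP32B had 196, 154 and 135 CPM in stars 1000, against 268, 209 and 177 CPM in control (block -0.43 ± 0.07, DESeq2 adjusted p = 0.0183). Both were lower in each pair, with ranges that overlapped between groups, and edgeR's block fit with the filter called neither. Among genes called only in the block fit without a filter, UBE2J2, a ubiquitin-conjugating enzyme of the endoplasmic reticulum, had 20.6, 23.8 and 19.2 CPM in stars 1000, against 30.9, 41.3 and 33.95 CPM in control, and MRPS18C, a mitochondrial ribosomal protein, had 10.6, 10.2 and 9.42 CPM, against 16.8, 18.8 and 16.5 CPM in control. Neither gene's groups overlapped.

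On the higher side, KITLG had the highest level of the 3 genes called by DESeq2 with the block. Endothelial cells use this membrane-bound and secreted ligand to support KIT-bearing cells such as mast cells and blood progenitors. KITLG, on chromosome 12 at 88492793 to 88580851 (minus strand), had 541, 505 and 484 CPM in stars 1000, against 333, 375 and 428 CPM in control. All exposed libraries were above all control libraries, and the difference was widest in replicate 1 and narrowest in replicate 3. The log2 fold change was 0.42 ± 0.13 with group only and 0.43 ± 0.10 with the block, where edgeR gave an adjusted p of 1.00 and DESeq2 0.0381. RND3, on chromosome 2 at 150468195 to 150539011 (minus strand), had 329, 308 and 278 CPM in stars 1000, against 184, 236 and 236 CPM in control (block 0.47 ± 0.12, DESeq2 adjusted p = 0.0499). Its groups did not overlap either, and the p lay at the threshold. Adjusted over all genes tested, the DESeq2 adjusted p was 0.123, and edgeR's block fit with the filter did not call the gene.

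HIST1H4C, on chromosome 6 at 26103876 to 26104310 (plus strand), had 73.0, 55.7 and 72.0 CPM in stars 1000, against 48.4, 24.1 and 48.3 CPM in control. Replicate 2 was the lowest library of each group, and the groups did not overlap. The log2 fold change was 0.72 ± 0.28 with group only and 0.78 ± 0.14 with the block, where edgeR gave an adjusted p of 0.456 and DESeq2 0.0225. HIST1H4C is 1 of many histone H4 genes of near-identical coding sequence, which are made in S phase. HIST1H4B had 11.704, 11.72 and 11.68 CPM in stars 1000, against 8.54, 4.04 and 10.3 CPM in control, and HIST1H3D had 41.4, 27.5 and 23.1 CPM in stars 1000, against 25.1, 14.7 and 19.7 CPM in control. Of 62 replication-dependent histone genes tested 46 were higher and 16 lower, in a list drawn up after the fits were seen. The median log2 fold change was 0.14, and 50.8% of all genes were higher. That median ranged from 0.04 without stars 1000 replicate 1 to 0.32 without control replicate 1, and without control replicate 3 the counts were 34 higher and 29 lower of 63 tested.

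**Figure D2:**
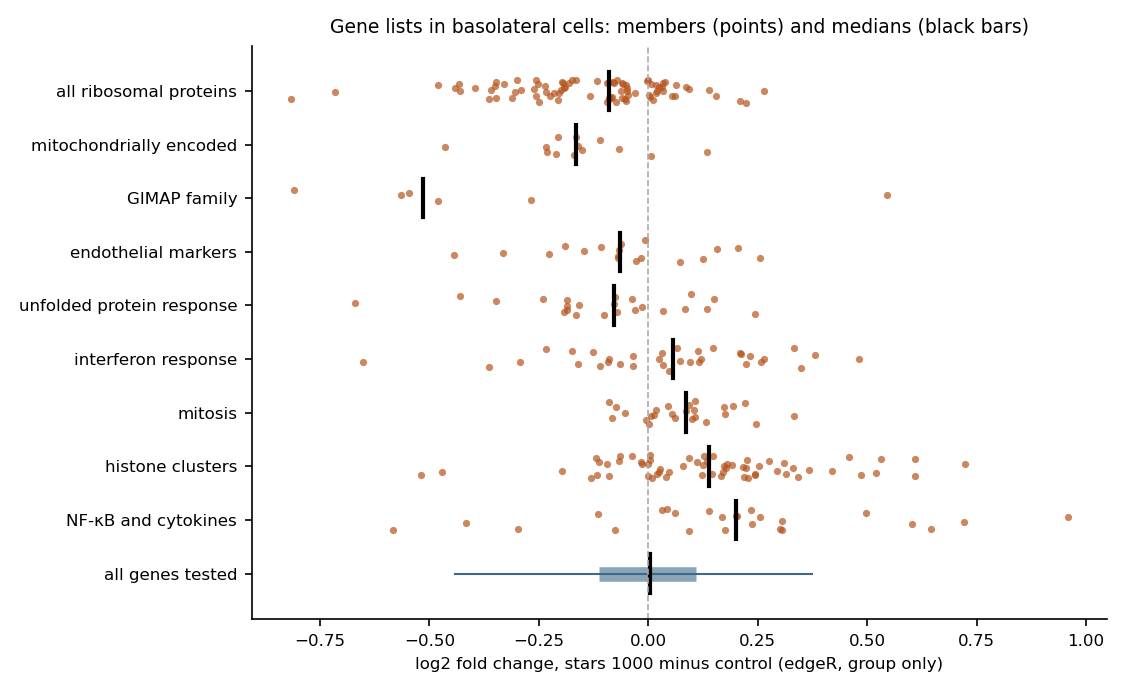
Log2 fold change, stars 1000 minus control, of the members of 9 gene lists (points) with the list median (black bar), and for all genes tested the median with the range from the 25th to the 75th percentile (box) and from the 5th to the 95th (line). The median of the 84 ribosomal protein genes stood at -0.09 and that of the 62 histone genes at 0.14.

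Further genes stood apart between the groups without a call in either block fit with the filter. S1PR3, a receptor for sphingosine 1-phosphate that acts on endothelial barrier function, had 14.5, 14.6 and 11.4 CPM in stars 1000, against 8.32, 8.28 and 7.97 CPM in control. For this gene DESeq2 with the block gave no adjusted p, so it could not be called there. MMP10, a stromelysin, had 249, 170 and 127 CPM in stars 1000, against 95.5, 113 and 121 CPM in control, and MMP1, an interstitial collagenase encoded beside it on chromosome 11, had 2046, 2049 and 1860 CPM, against 1329, 1658 and 1712 CPM in control. The groups did not overlap in any of the 3 genes, as in 894 of all 13182 genes (6.78%), 483 above (3.66%) and 411 below (3.12%). The log2 fold change with group only was 0.71 ± 0.19 for S1PR3, 0.71 ± 0.23 for MMP10 and 0.33 ± 0.13 for MMP1, each at an adjusted p of 1.00 in edgeR. With the block it was 0.71 ± 0.20, 0.67 ± 0.32 and 0.34 ± 0.10 in the same order, and the 95% interval of MMP10 ran from -0.34 to 1.68. MMP1 was called in the block fit without a filter (adjusted p = 0.0476). NRIP3, chosen after its values were seen, had 35.3, 34.8 and 30.02 CPM in stars 1000, against 23.8, 20.4 and 20.7 CPM in control.

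Endothelial genes showed values in both directions. Of 18 endothelial markers tested 5 were higher and 13 lower, with a median log2 fold change of -0.07, and none was called with the filter. PLVAP, which builds the diaphragms of endothelial fenestrae, had 72.8, 68.3 and 43.1 CPM in stars 1000, against 102, 82.9 and 63.9 CPM in control (block -0.45 ± 0.10, edgeR adjusted p = 0.809). It was lower in each pair and was called in the block fit without a filter. ENG, a co-receptor for TGF-β family ligands, had 217, 231 and 193 CPM in stars 1000, against 246, 250 and 231 CPM in control, while ESAM, an adhesion molecule of endothelial junctions, had 83.4, 79.2 and 82.8 CPM, against 58.6, 73.9 and 71.9 CPM in control. The groups of ENG and of ESAM did not overlap, in opposite directions. ANGPT2, an angiopoietin that endothelial cells secrete, had 18.6, 21.8 and 16.96 CPM in stars 1000, against 30.5, 37.9 and 17.7 CPM in control, and UNC5B, a netrin receptor, had 8.89, 6.95 and 10.7 CPM, against 4.38, 5.01 and 6.88 CPM in control. Of 24 angiogenic signalling genes tested 12 were higher and 12 lower (median 0.003), of 17 junction genes 8 and 9 (median -0.005), and none was called in any of the 4 fits. DESeq2 with the block gave no adjusted p for some of them, ANGPT2 and UNC5B included, and could not call those.

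The inflammatory genes did not separate the groups. Of 25 genes of NF-κB signalling and its cytokines 20 were higher and 5 lower, with a median log2 fold change of 0.20, and none was called. IL8, a neutrophil-attracting chemokine, had 266, 66.7 and 219 CPM in stars 1000, against 91.8, 171 and 99.0 CPM in control. Stars 1000 replicates 1 and 3 were above all controls and replicate 2 below all of them. CSF3, a granulocyte growth factor, had 11.5, 6.95 and 11.1 CPM in stars 1000, against 4.82, 6.45 and 7.31 CPM in control, and RELB, an NF-κB subunit, had 41.8, 20.5 and 65.8 CPM, against 24.5, 24.7 and 40.9 CPM in control. The summed level of the list was 3764, 1648 and 4482 CPM in stars 1000, against 2570, 3032 and 3017 CPM in control, so that the exposed libraries took both the lowest and the 2 highest places. The list median was -0.06 without stars 1000 replicate 3 and 0.51 without stars 1000 replicate 2. Of 34 interferon response genes 21 were higher and 13 lower (median 0.06), with none called. Their median was 0.36 without control replicate 3 and -0.09 without stars 1000 replicate 1.

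Stress responses looked for after metal particles showed small values. Of 10 metallothionein and zinc transport genes tested 4 were higher and 6 lower (median -0.03), and MT2A, which binds heavy metals, had 81.9, 40.9 and 46.0 CPM in stars 1000, against 52.98, 58.2 and 63.0 CPM in control. Of 23 oxidative stress genes of the NRF2 pathway 10 were higher and 13 lower (median -0.01), and HMOX1, haem oxygenase 1, had 22.97, 16.8 and 20.9 CPM in stars 1000, against 15.98, 18.2 and 22.4 CPM in control. The groups overlapped for both genes. GCLM, a subunit of the enzyme that begins glutathione synthesis, had 53.5, 50.2 and 48.6 CPM in stars 1000, against 43.0, 48.7 and 35.2 CPM in control (block 0.26 ± 0.11, edgeR adjusted p = 1.00). Of 23 genes of the unfolded protein and integrated stress responses 6 were higher and 17 lower (median -0.08). HSP90B1, a chaperone of the endoplasmic reticulum, had 2552, 2279 and 2098 CPM in stars 1000, against 2771, 2700 and 2376 CPM in control, and PDIA4, a disulfide isomerase there, had 554, 570 and 551 CPM, against 600, 638 and 657 CPM in control. Both were lower in each pair, and the groups of PDIA4 did not overlap. Of 13 heat shock genes 5 were higher and 8 lower (median -0.008), of 20 p53 target genes 11 and 9 (median 0.007), and of 17 genes of cell death and the inflammasome 6 and 11 (median -0.004). None of these genes was called in the group-only or block fits of edgeR and DESeq2. DESeq2 with the block gave no adjusted p for some of them, for example SLC30A1, and could not call those.

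Genes of uptake and of cell division leaned to the higher side by small amounts. Of 23 endocytosis genes 16 were higher and 7 lower (median 0.04), as were 16 and 7 of 23 lysosome genes (median 0.04). ATP6V1B2, a subunit of the pump that acidifies lysosomes, had 75.9, 85.6 and 85.4 CPM in stars 1000, against 74.2, 65.7 and 70.2 CPM in control, without overlap (block 0.23 ± 0.10, edgeR adjusted p = 1.00). Of 25 mitosis genes 20 were higher and 5 lower (median 0.09), and 11 were higher in every pair, which held for 13.3% of all genes. CDK1, the kinase that drives entry into mitosis, had 162, 179 and 131 CPM in stars 1000, against 149, 155 and 100 CPM in control. With group only, the median of the mitosis list was -0.07 without stars 1000 replicate 2 and -0.06 without control replicate 3. Each of these fits kept the same-numbered library of the other group. The summed level was highest in replicate 2 and lowest in replicate 3 of both groups, so these fits cannot show the direction within pairs. Of 25 DNA replication genes 20 were higher and 5 lower (median 0.09), with a median of -0.03 without either of the same libraries. Of 22 cholesterol synthesis genes 18 were higher and 4 lower (median 0.07), and NSDHL, an enzyme of that pathway, had 32.5, 22.3 and 20.98 CPM in stars 1000, against 23.4, 17.1 and 14.5 CPM in control.

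Markers listed for the apical cell types were found in the basolateral libraries, and their sums followed the replicate number. The summed level of 19 epithelial markers of A549 cells was 2794, 1925 and 1266 CPM in stars 1000, against 3974, 2036 and 498 CPM in control (exact two-sided permutation p = 0.9). ALDH1A1, which oxidises aldehydes and is plentiful in A549 cells, had 818, 612 and 464 CPM in stars 1000, against 1150, 644 and 139 CPM in control, and averaged 7997 CPM in apical control cells. Replicate 1 was the highest and replicate 3 the lowest in both groups. Not every marker fell so far in control replicate 3, where KRT8 had 139 CPM and KRT18 162 CPM, against 3.49 CPM for FGA. Of these 19 markers ESRP1 was at 0 in all 6 libraries, and EPCAM, SFTPB and SFTPC were at no more than 1.19 CPM. The summed level of 15 macrophage markers was 284, 182 and 120 CPM in stars 1000, against 293, 197 and 84.8 CPM in control (p = 1 in the same exact test). Of these, CD14 stood at 0.218 to 4.12 CPM, CD68 at 31.55 to 59.77 CPM and LAPTM5 at 36.9 to 75.97 CPM. Mast cell markers summed to 127, 43.8 and 14.3 CPM in stars 1000, against 185, 44.4 and 3.28 CPM in control (exact p = 0.8), dendritic cell markers, 4 of 9 of which were at 0, to at most 13.4 CPM (exact p = 0.3) and fibroblast markers to at most 38.6 CPM, nearly all of it FAP (exact p = 0.6). The endothelial sum was 3506, 3832 and 4132 CPM in stars 1000, against 3424, 3854 and 4266 CPM in control (exact p = 0.9). The epithelial sum was lower in stars 1000 in pairs 1 and 2 and higher in pair 3. The part of the apical markers in the results given here was not tested. Whether the basolateral cells themselves make some of these transcripts was not tested either.

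**Figure D3:**
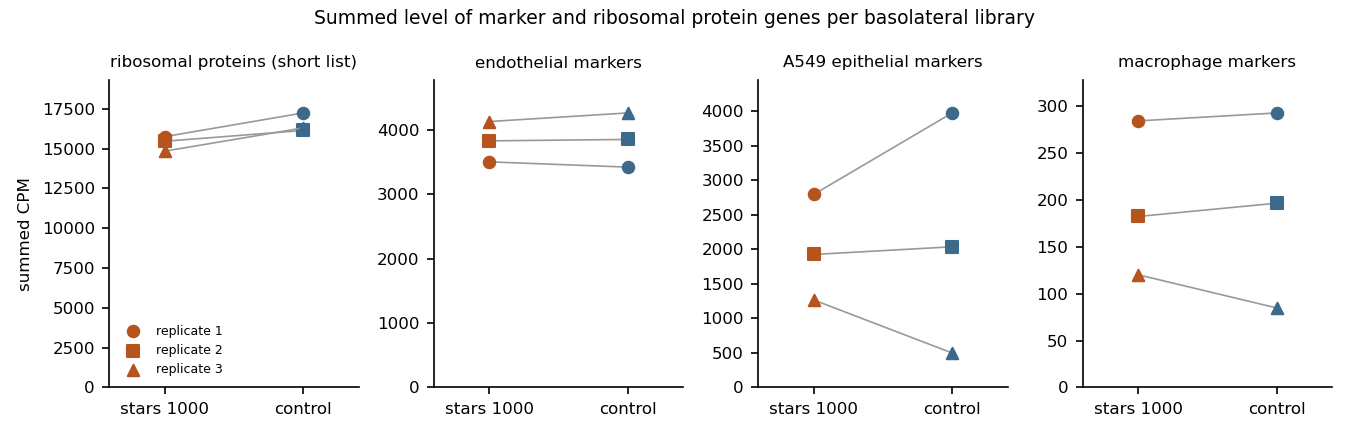
Summed CPM of the 20 ribosomal protein genes of the shorter list and of the endothelial, A549 epithelial and macrophage markers in each basolateral library, stars 1000 left of control, with lines joining same-numbered libraries and axes from 0. The ribosomal protein sums of the groups did not overlap, whereas the epithelial sums ran from 1266 to 2794 CPM in stars 1000 and from 498 to 3974 CPM in control.

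Stars 1000 was then set against the other particle groups of the basolateral side. No gene was called against stars 500 (0 of 12875 tested, 143 at an unadjusted p under 0.05), against spheres 1000 (0 of 12877, 104) or against rods 1000 (0 of 12964, 323) with group only in edgeR. DESeq2 with group only called 1 gene against stars 500 (CFB_2, 0.00777% of those tested) and 0 against spheres 1000 and rods 1000, and edgeR with the replicate block called 1 against rods 1000 (CFB_1, 0.00771%). For COX7C the log2 difference of stars 1000 was -0.18 ± 0.20 from stars 500, -0.58 ± 0.62 from spheres 1000 and -0.15 ± 0.50 from rods 1000. For KITLG it was 0.22 ± 0.33, -0.15 ± 0.16 and -0.06 ± 0.11 in the same order. For CCDC112 the difference from stars 500 was -0.45 ± 0.14 (unadjusted p = 0.012, adjusted p = 1.00 in edgeR). None of these differences passed the adjustment, and a p above the threshold does not show that shapes or numbers act alike.

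The levels of the same genes were then set side by side over the 7 basolateral groups. COX7C averaged 137 ± 34.1 CPM in stars 1000 (SD, n = 3), 153 ± 92.4 in rods 1000, 156 ± 35.2 in stars 500, 204 ± 169 in spheres 1000, 225 ± 108 in rods 500, 270 ± 145 in spheres 500 (n = 2) and 231 ± 65.0 in control. Stars 1000 had the lowest mean, and neighbours in that order differed by less than the larger SD of the pair. KITLG averaged 510 ± 29.1 CPM in stars 1000, and the other particle groups averaged from 434 ± 186 in stars 500 to 567 ± 88.3 in spheres 1000, against 378 ± 47.6 CPM in control. MMP10 averaged 182 ± 62.0 CPM in stars 1000 and 181 ± 116 to 231 ± 101 CPM in the other particle groups, against 110 ± 12.9 CPM in control. The control mean of KITLG and of MMP10 was below that of every particle group, all of which are set against the same 3 control libraries. HIST1H4C averaged 66.9 ± 9.72 CPM in stars 1000, the highest of the 7 means, and 34.4 ± 9.74 CPM in spheres 500, the lowest. COX7C and HIST1H4C had been chosen for their difference between stars 1000 and control, so the rank of stars 1000 is no independent result.

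**Figure D4:**
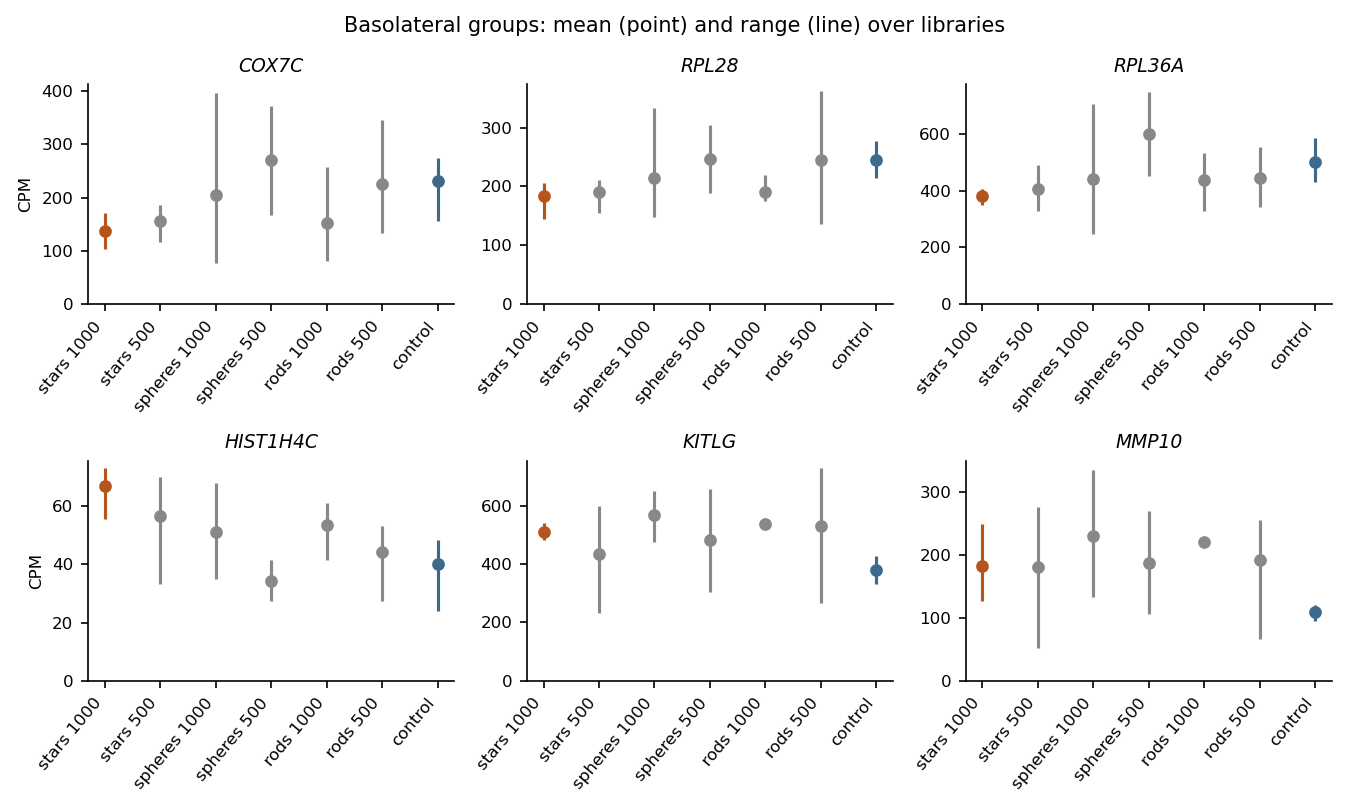
Mean (point) and range over libraries (line) of 6 genes in CPM for the 7 basolateral groups, stars 1000 at the left and control at the right, with axes from 0; each group has 3 libraries except spheres 500, which has 2. The ranges of COX7C, RPL28 and RPL36A in stars 1000 lie within those of spheres 1000 or overlap them, and the control means of KITLG and MMP10 are the lowest of the 7.

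Finally the effect of stars 1000 in basolateral cells was compared with that in the apical A549 and THP1 cells, as the difference of the log2 fold changes in 1 fit over 12 libraries. No gene of 14897 tested was called (0%, with 409 at an unadjusted p under 0.05), and DESeq2 called 3 (0.0201%), namely SERF1A, which has a near-identical copy, CTD-2207O23.3 and RP11-419C5.2. For COX7C the log2 fold change was 0.46 ± 0.15 in apical cells, and the difference, basolateral minus apical, was -1.22 ± 0.30 (unadjusted p = 0.00157). For CCDC112 it was 0.18 ± 0.17 in apical cells with a difference of -0.81 ± 0.18 (unadjusted p = 0.000803), and for RPL28 0.17 ± 0.10 with a difference of -0.60 ± 0.17 (unadjusted p = 0.00447). The fitted values had opposite signs in the compartments for these 3 genes, and none of the differences passed the adjustment in edgeR. For CCDC112 and RPL28 the sign in apical cells is uncertain, given the standard errors. The 3 genes had been chosen for their low values in the same basolateral libraries, so these unadjusted p-values are no independent result.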

How the data were processed

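Total RNA of 6 basolateral libraries was compared, 3 exposed for 24 h and 3 controls, within a table of 41. Purification (QIAGEN) and library preparation (SMARTer Stranded Total RNA, HI Mammalian) started from total RNA, per the labels. The deposited values are raw counts per gene, whole numbers made by the authors on GRCh38.p13 per the submitters' processing notes; the aligner, the counter, the strand setting and the annotation used are not stated in the labels, and antisense or overlapping genes cannot be told apart. Even numbers made up 68.1 to 70.5% of the counts from 1 to 20, so both reads of a pair may have been counted, and counting errors may be larger than the counts imply. No libraries were copies of each other.

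Genes were filtered with filterByExpr, scaled with TMM and tested in edgeR 4.0.16 (R 4.3.3) by the robust quasi-likelihood F test with group as the only term. Genes with a Benjamini-Hochberg adjusted p under 0.05 were called, adjusted over all genes tested in edgeR and limma and over the genes left by its independent filter in DESeq2. The replicate number was added as a block because same-numbered libraries correlated above 0.1 in every pair (deviations from group means). DESeq2 1.42.0 was fitted with and without the block, and limma 3.58.1 (voom) without it. Log2 fold changes and standard errors are those of edgeR, also where a DESeq2 adjusted p stands beside them. CPM are counts scaled to an equal library total. Marker sums were compared by exact permutation. Alternatives were other scalings, other filters, all basolateral libraries in 1 fit, and leaving out libraries. Those with the DESeq2 p adjusted over all genes, halved counts, or a replicate number left out of both groups were chosen after seeing the data.

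Named genes had an average log2 CPM of at least 1 and groups that did not overlap, up to 10 per direction by block p, plus up to 4 members of each list by block p and up to 3 markers by level; others, including the genes called in single fits and levels such as IL8, MT2A and HMOX1, were chosen after their values were seen. The comparison, the gene lists and the rules were chosen with earlier results of these data known, and the lists by symbol (ribosomal proteins, respiratory chain subunits, histones) after seeing the fits. Of 741 listed genes 724 were matched by symbol, 16 by identifier, and PECAM1 was not. Coordinates are from GENCODE 29.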

Additional observations from a re-analysis of the deposited data

How the results depend on the processing

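The count of called genes against control was 0 with group only under every scaling, filter and tool tried and with any single library left out, while the median of all genes moved by less than 0.1 (log2). With the replicate block, edgeR called 0, and DESeq2 called 16, or 4 when adjusted over all genes, 2 with halved counts and 0 with all basolateral libraries in 1 fit. edgeR's block without a filter called 36. With replicate 1, 2 or 3 left out of both groups the blocked counts were 0 to 8 in edgeR and 1 to 11 in DESeq2. The cause of these shifts was not tested. Against stars 500, DESeq2 and edgeR without a filter called 1 gene each, and edgeR 0 to 1 when a library was left out. Against rods 1000 the replicate block gave 1 call and the fit without a filter 35. Those 35 included the A549 markers AKR1C1 and ELF3 and the macrophage markers PTPRC and ITGB2, all lower in stars 1000. Others, such as TICAM2, were higher. The part of apical markers in these calls was not tested. For the difference between compartments DESeq2 called 3, the fit without a filter 1, and edgeR 0 to 1 with a library left out, the 1 call (SERF1A, near-identical copies) coming without control apical replicate 2. Of the single genes, the log2 fold change with a library left out ran from -0.48 to 0.04 for MT-ND4L and from -0.377 to 0.028 for MT-ND1, both higher without stars 1000 replicate 2, and from -0.10 to 0.55 for IRF1, lower without stars 1000 replicate 3. With the filter, the replicate block changed no other call against control named here, and all 16 calls of the DESeq2 block kept their direction with group only. Without a filter edgeR called 0 with group only. MMP1, PLVAP, UBE2J2, MRPS18C, NRIP3 and HIST1H3D were thus called there only with the block. With 3 libraries a group and a median standard error of 0.18 (0.15 with the block), changes under 2-fold were mostly not resolvable, and low genes least of all.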

Other observations

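GIMAP genes, which encode small GTPases best known from lymphocytes and also expressed in endothelium, were chosen after their values were seen. Of 6 tested 5 were lower and 1 higher in stars 1000, with a median log2 fold change of -0.51, and none was called. GIMAP1 had 11.5, 16.5 and 10.7 CPM in stars 1000, against 19.8, 21.5 and 16.05 CPM in control. GIMAP4 had 26.4, 37.2 and 20.1 CPM in stars 1000, against 46.5, 36.3 and 39.4 CPM in control. Replicate 2 was the highest exposed library for both genes, and its GIMAP4 level was above that of control replicate 2. The family median stayed between -0.64 and -0.37 over the libraries left out, in fits with group only that cannot show the direction within pairs.

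Single genes of vascular tone, of the matrix and of leukocyte adhesion gave the following values. EDN1, which encodes the vasoconstrictor endothelin 1, had 39.7, 37.2 and 64.1 CPM in stars 1000, against 57.3, 57.5 and 61.5 CPM in control, with replicate 3 alone above its control and the groups overlapping. LAMB1, a laminin chain of basement membranes, had 999, 1068 and 1022 CPM in stars 1000, against 1098, 1180 and 1149 CPM in control, without overlap (block -0.16 ± 0.07, edgeR adjusted p = 1.00). SELP, the platelet and endothelial selectin, had 1.30, 1.59 and 1.01 CPM in stars 1000, against 3.72, 2.12 and 2.18 CPM in control, also without overlap and at a level of few counts. It was the 1 lower gene of 9 leukocyte adhesion genes tested. The other 8 were higher, the list's median log2 fold change was 0.045, and none was called. Of 24 matrix genes tested 14 were higher and 10 lower, with a median log2 fold change of 0.015.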
